A study of Mus musculus with 12 samples.

Results

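The genes described here are 10 components of the bone morphogenetic protein (BMP) arm of TGFβ superfamily signalling: the receptors *Acvrl1*, *Bmpr1a* and *Bmpr2*, the co-receptor *Eng*, the signal transducers *Smad1* and *Smad6*, and the target genes *Id1*, *Id2*, *Id3* and *Id4*. They were taken by name from the 54352 gene symbols counted in each library, and all 10 passed the filter on low counts in each of the 5 comparisons made. Bulk RNA was sequenced from primary adventitial fibroblasts, which make up much of the vessel's outer coat, grown from explants of the ascending or the descending aorta of wild-type C57Bl/6 mice, whose age the labels give as 14 weeks. Cultures received solute control (TGFβ at 0 ng/mL) or mouse TGFβ at 10 ng/mL for 48 h. The 4 groups were thus ascending control, ascending TGFβ, descending control and descending TGFβ, with 3 libraries each and 12 in all. Every culture shared the wild-type genotype, the expansion in serum on plastic and the passage before treatment. Neither the labels nor the methods say which cultures came from the same mice, so p-values measure only the spread between these cultures, which may be technical.

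BMP ligands bind pairs of type I and type II serine/threonine kinase receptors, which phosphorylate SMAD1, SMAD5 and SMAD9. These join SMAD4, enter the nucleus and switch on direct targets, of which the ID genes are the classical readout. ID proteins are helix-loop-helix factors without a DNA-binding region, and they hold basic helix-loop-helix (bHLH) partners away from DNA. TGFβ itself signals mainly through another type I receptor and through SMAD2 and SMAD3, yet in endothelial cells and some fibroblasts it can also engage ALK1, the product of *Acvrl1*, with endoglin, the product of *Eng*, as co-receptor.

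The bases just before the start site are shown for *Id4*, *Eng* and *Smad6*, which represent a target, a receptor and an inhibitor and differ in the short SMAD-binding words they hold. The windows end at the base before the start site in RefSeq, are 250 bases long, come from build GRCm38.p6 and are written 5′ to 3′ on the gene's strand. They lie at chr13:48260866-48261115 (plus strand) for *Id4*, chr2:32646345-32646594 (plus strand) for *Eng* and chr9:64022060-64022309 (minus strand) for *Smad6*, and no base of the 3 windows lies in an annotated exon. Capitals mark the GC-rich word GGCGCC, known to be bound by SMAD1 and SMAD5, and the word CAGAC or its reverse complement GTCTG, known as the SMAD box.
Id4: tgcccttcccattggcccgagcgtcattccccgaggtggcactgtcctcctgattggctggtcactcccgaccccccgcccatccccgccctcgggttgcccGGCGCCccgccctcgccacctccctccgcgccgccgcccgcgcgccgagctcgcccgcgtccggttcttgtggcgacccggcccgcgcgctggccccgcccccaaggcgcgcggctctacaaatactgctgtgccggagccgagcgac
Eng: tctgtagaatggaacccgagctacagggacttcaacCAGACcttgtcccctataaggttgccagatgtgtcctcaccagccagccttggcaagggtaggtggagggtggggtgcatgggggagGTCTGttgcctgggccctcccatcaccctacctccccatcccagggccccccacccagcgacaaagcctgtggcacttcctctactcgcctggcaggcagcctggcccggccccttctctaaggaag
Smad6: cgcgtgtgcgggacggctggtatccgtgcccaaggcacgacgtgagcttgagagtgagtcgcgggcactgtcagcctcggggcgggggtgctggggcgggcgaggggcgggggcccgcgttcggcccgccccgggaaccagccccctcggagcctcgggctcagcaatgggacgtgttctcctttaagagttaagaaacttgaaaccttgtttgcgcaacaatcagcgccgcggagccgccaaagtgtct
The *Id4* window held GGCGCC from 148 to 143 bases before the start. The *Eng* window held CAGAC from 214 to 210 and GTCTG from 127 to 123 bases before it, while the *Smad6* window held neither word. Windows were available for 8 of the 10 members, *Id1* and *Acvrl1* being the others. GGCGCC was found in 4 of the 8 (*Id2*, *Id4*, *Bmpr1a*, *Bmpr2*) and in 9.59% of all 32851 windows of this length. The members' windows were 62.4% to 78.8% G and C, and the set of all windows was not matched for this. The *Id3* and *Bmpr2* windows lay wholly in annotated exons. CAGAC on either strand was found in 2 of the 8 (*Id3* and *Eng*) and in 42.2% of all windows. The E-box CANNTG, the word read by bHLH factors, was found in 2 of the 8 (*Id2* and *Eng*) and in 66.2% of all windows.

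Libraries held 16250126 to 23892943 counts. Descending control replicate 3 stood apart from the other 11 libraries, with 13031 genes with a count against 19337 to 20931 and with 11.02% of counts from mitochondrial genes against 0.703% to 1.03%. It was the lowest or the highest of the 3 descending controls for each of the 10 members, and the members' results that rest on it are given with and without it. For the other genes of the pathway single values are given without it, and counts of calls, where given, both ways. Fibroblast markers summed to 12605 to 25567 CPM (counts scaled to a common library size with TMM factors) in each library. Their members did not move together with TGFβ. The means of *Col1a1*, *Col1a2* and *Pdgfrb* rose at both sites, while those of *Col3a1*, *Dcn*, *Lum* and *Pdgfra* fell. In ascending fibroblasts mean *Col1a1* went from 5505 to 10842 CPM and mean *Pdgfra* from 184 to 55.2. Of 8 endothelial markers, *Tie1* was at 0 in all 12 libraries, and *Pecam1* and *Cdh5* did not exceed 6 counts in any. *Tek*, of the same list, had 69 to 612 counts. The macrophage and leukocyte list (5 of 5 detected) summed to 14.2 to 51.1 CPM in ascending control, 8.72 to 10.5 in ascending TGFβ, 9.65 to 13.3 in descending control (10.8 to 13.3 without replicate 3) and 6.68 to 7.47 in descending TGFβ, and its part in the results with TGFβ was not tested. The top of this range was ascending control replicate 2, where *Cd68* stood at 17.8 CPM against 3.61 and 3.65 in the other ascending controls. Without that library, 9 of the 10 members passed with TGFβ in ascending fibroblasts, the same 8 as with it and *Smad1*, where 52.3% of all genes did. The lowest ascending control, at 14.2 CPM for the macrophage and leukocyte list, still lay above every ascending TGFβ library. In bulk RNA, fewer cells of a type and less RNA per cell cannot be told apart.

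The first question was how 48 h of TGFβ changed the BMP arm at each site. The ID genes fell: *Id1*, *Id2* and *Id4* dropped 2.13-fold, 2.62-fold and 2.46-fold in ascending fibroblasts, and *Id3* dropped 1.29-fold. *Acvrl1*, which encodes the type I receptor ALK1, fell 2.13-fold, and the inhibitory *Smad6* fell 1.31-fold. *Eng* and the type II receptor gene *Bmpr2* rose 1.32-fold and 1.39-fold. *Bmpr1a* and *Smad1* did not pass the test there. In all, 8 of the 10 members passed in ascending fibroblasts, 2 higher and 6 lower, where 55.8% of the 13917 genes tested did so (edgeR's quasi-likelihood test, Benjamini-Hochberg adjusted p under 0.05). In descending fibroblasts, 1 of 10 passed with all 6 libraries, where 8.07% of all genes did. Without descending control replicate 3, 9 of 10 passed, 2 higher and 7 lower, where 52.9% did. The median log2 fold change of the 10 members was -0.38 in ascending fibroblasts, against -0.00 over all genes tested. In descending fibroblasts it was -0.36 (all genes 0.02), and -0.41 without replicate 3 (all genes -0.01).

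**Figure D1:**
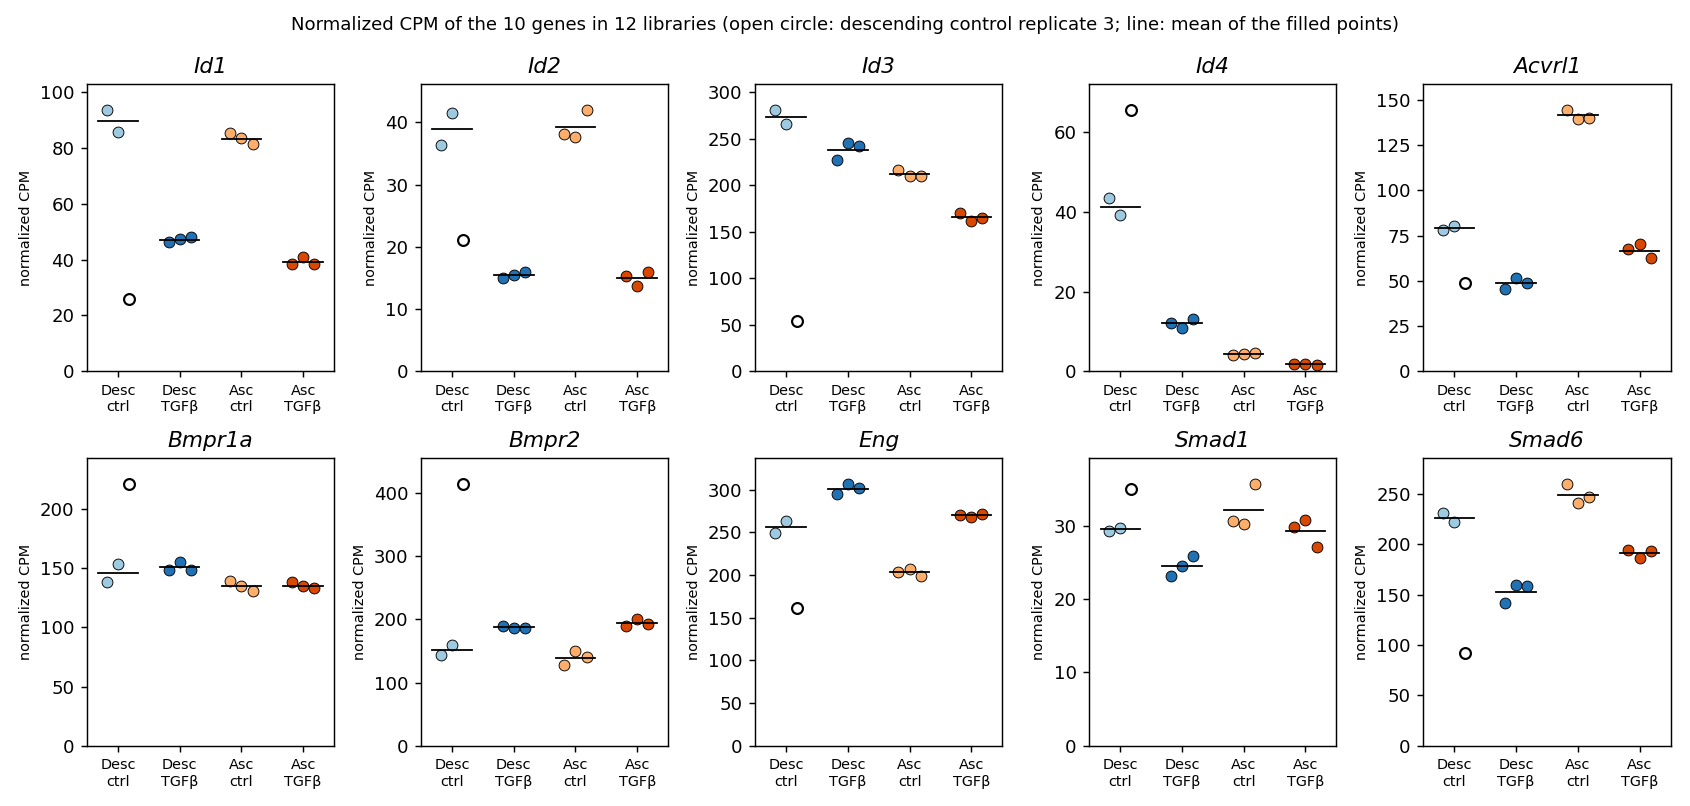
Normalized CPM (linear axes from 0) of the 10 genes in each of the 12 libraries, by group. Filled points are libraries, open circles mark descending control replicate 3 and lines are means of the filled points. *Id4* runs from 39.2 CPM or more in descending controls down to 1.66 to 1.83 in ascending TGFβ, while *Bmpr1a* stays between 130.4 and 221.

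Among the 4 member receptors and co-receptors, *Acvrl1* (chr15:101128522-101145336 of GRCm38, plus strand, 4265 exonic bases) changed most with TGFβ. It measured 145, 139.8 and 140.1 CPM in the ascending controls and 67.4, 70.4 and 62.4 with TGFβ. In descending fibroblasts the controls measured 78.3, 80.4 and 49.0 (replicate 3), and the descending TGFβ libraries 45.3, 51.9 and 48.7. The ascending groups were far apart. The descending groups overlapped through replicate 3 and did not overlap without it. The log2 fold change was -1.09 in ascending fibroblasts (SE 0.05, edgeR adjusted p = 2.94e-12). In descending fibroblasts it was -0.71 without replicate 3 (SE 0.06, edgeR adjusted p = 9.42e-11) and -0.52 with it (SE 0.21, edgeR adjusted p = 0.213).

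*Eng* (chr2:32646595-32682669, plus strand, 4048 exonic bases) encodes endoglin, a co-receptor that binds BMP9 and BMP10 and works beside ALK1. It rose from 203, 208 and 199 CPM to 271, 268 and 271 in ascending fibroblasts. In descending fibroblasts the controls measured 249, 264 and 161 (replicate 3) and the TGFβ libraries 295, 306 and 302. Every TGFβ library lay above every control library of its site. *Eng* thus moved opposite to *Acvrl1*. TGFβ gave a log2 fold change of 0.40 in ascending fibroblasts (SE 0.03, edgeR adjusted p = 1.06e-08). It was 0.24 in descending fibroblasts without replicate 3 (SE 0.05, edgeR adjusted p = 0.000184) and 0.42 with it (SE 0.20, edgeR adjusted p = 0.278).

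Both *Acvrl1* and *Eng* are best known from endothelium, so the endothelial list is given beside them. Its 8 markers summed to 24.4 to 28.1 CPM in ascending control, 8.40 to 10.4 in ascending TGFβ, 23.9 to 26.8 in descending control (25.2 to 26.8 without replicate 3) and 12.4 to 15.1 in descending TGFβ. In ascending control most of this was *Tek*, the angiopoietin receptor, which stood at 24.3 ± 1.21 CPM (SD, n = 3) in ascending control and 4.12 ± 0.57 in ascending TGFβ. *Erg*, an ETS factor, went the other way, with 0 to 4 counts in each control library and 55 to 108 counts in each TGFβ library. *Pecam1* and *Cdh5* were at or near 0 in every library, while *Kdr* and *Vwf* had up to 34 and 21 counts. The part of the endothelial list in the changes of *Acvrl1* and *Eng* with TGFβ was not tested.

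*Bmpr2* (chr1:59763400-59879014, plus strand, 17983 exonic bases) encodes the BMP type II receptor, which phosphorylates ALK1 and the other type I receptors. It measured 128, 149.9 and 140.1 CPM in ascending control and 190.1, 201 and 192 with TGFβ. Descending controls measured 143, 159 and 414 (replicate 3) and the TGFβ libraries 189.6, 186 and 187. The ascending groups did not overlap. In descending fibroblasts replicate 3 alone lay above the TGFβ libraries, at more than any other library. In edgeR the log2 fold change was 0.48 in ascending fibroblasts (SE 0.05, edgeR adjusted p = 2.6e-07) and 0.31 in descending fibroblasts without replicate 3 (SE 0.05, edgeR adjusted p = 1.02e-05). With replicate 3 its sign turned, to -0.36 (SE 0.43, edgeR adjusted p = 0.661).

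*Bmpr1a* (chr14:34410734-34503341, minus strand, 6351 exonic bases) encodes the type I receptor ALK3. It measured 139, 135 and 130.4 CPM in ascending control and 138, 135 and 133 with TGFβ. At the descending site the controls measured 138, 154 and 221 (replicate 3) and the TGFβ libraries 148, 155 and 148. The groups overlapped at both sites. The log2 fold change in ascending fibroblasts was -0.00, with a 95% confidence interval from -0.08 to 0.08 (edgeR adjusted p = 0.976). In descending fibroblasts without replicate 3 it was 0.05, with an interval from -0.06 to 0.16 (edgeR adjusted p = 0.453), and with it -0.19 (edgeR adjusted p = 0.616). The reading of *Bmpr1a* is limited by an antisense gene, *Gm17110*, which covers 4.57% of its exonic bases, since the strand setting of the counting is not given in the sources used here.

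**Figure D2:**
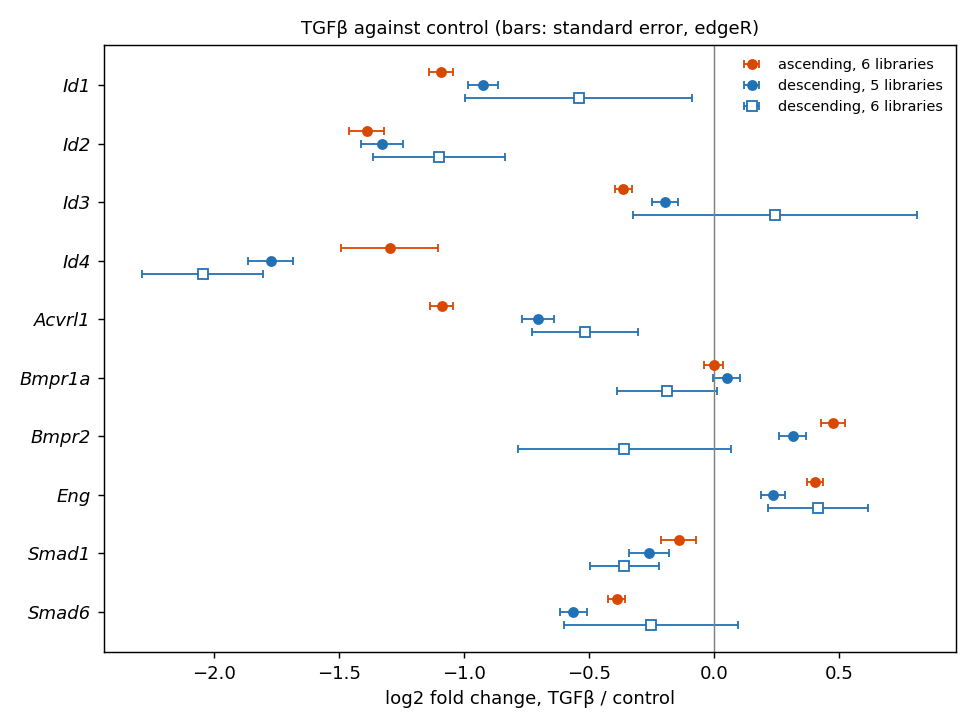
Log2 fold change of TGFβ against control for the 10 genes (edgeR), with bars of 1 standard error. Orange circles are ascending fibroblasts (6 libraries), blue circles descending fibroblasts without replicate 3 of the control (5 libraries) and open squares all 6 descending libraries, whose bars are wider. *Id1*, *Id2*, *Id4* and *Acvrl1* lie left of 0 in all 3 fits, while *Eng* lies right of 0.

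Of the SMADs, *Smad6* (chr9:63953076-64022059, minus strand, 3205 exonic bases) encodes an inhibitory SMAD that is itself a BMP target and blocks type I receptors. It measured 259, 241 and 247 CPM in ascending control and 195, 186 and 193 with TGFβ. Among descending libraries, the controls measured 231, 222 and 91.8 (replicate 3) and the TGFβ libraries 141, 159 and 158. The TGFβ libraries lay below the controls at both sites, replicate 3 excepted. The log2 fold change was -0.39 in ascending fibroblasts (SE 0.04, edgeR adjusted p = 7.36e-08). In descending fibroblasts it was -0.56 without replicate 3 (SE 0.05, edgeR adjusted p = 4.31e-10) and -0.25 with it (SE 0.35, edgeR adjusted p = 0.705).

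*Smad1* (chr8:79338395-79399518, minus strand, 6262 exonic bases) encodes a receptor-activated SMAD of the BMP arm. It measured 30.6, 30.3 and 35.7 CPM in ascending control and 29.9, 30.8 and 27.1 with TGFβ. In descending fibroblasts the controls measured 29.4, 29.7 and 35.0 (replicate 3) and the TGFβ libraries 23.2, 24.6 and 25.9. The ascending groups overlapped, and the descending groups did not. TGFβ gave a log2 fold change of -0.14 in ascending fibroblasts, with a 95% interval from -0.29 to 0.01 (edgeR adjusted p = 0.103). Leaving out ascending control replicate 2 brought that adjusted p to 0.0492. In descending fibroblasts the log2 fold change was -0.26 without replicate 3 (SE 0.08, edgeR adjusted p = 0.00702) and -0.36 with it (SE 0.14, edgeR adjusted p = 0.186).

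Among the target genes, *Id1* (chr2:152736251-152737410, plus strand, 1160 exonic bases) fell at both sites. It measured 85.2, 83.5 and 81.2 CPM in ascending control and 38.3, 40.9 and 38.5 with TGFβ. Descending controls measured 93.6, 85.7 and 25.9 (replicate 3) and the TGFβ libraries 46.2, 47.4 and 47.9. Controls lay well above TGFβ libraries, except replicate 3, the lowest of all 12. In edgeR the log2 fold change was -1.09 in ascending fibroblasts (SE 0.05, edgeR adjusted p = 6.17e-12). In descending fibroblasts it was -0.92 without replicate 3 (SE 0.06, edgeR adjusted p = 9.76e-14) and -0.54 with it (SE 0.46, edgeR adjusted p = 0.522).

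*Id2* (chr12:25093799-25097140, minus strand, 2438 exonic bases) followed the same course at a lower count. It measured 38.1, 37.6 and 42.0 CPM in ascending control and 15.3, 13.8 and 16.02 with TGFβ. At the descending site the controls measured 36.3, 41.5 and 21.0 (replicate 3) and the TGFβ libraries 14.9, 15.4 and 15.97. No control library, replicate 3 included, fell as low as any TGFβ library. The log2 fold change was -1.39 in ascending fibroblasts (SE 0.07, edgeR adjusted p = 3.81e-11). In descending fibroblasts it was -1.33 without replicate 3 (SE 0.08, edgeR adjusted p = 4.28e-14). With replicate 3 it was -1.10 (SE 0.26, edgeR adjusted p = 0.0613), and DESeq2 gave an adjusted p of 0.00244 on the same 6 libraries.

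*Id3* (chr4:136143497-136145755, plus strand, 1791 exonic bases) had more counts and a smaller change. It measured 216, 210.3 and 209.7 CPM in ascending control and 169.7, 161 and 165 with TGFβ. Among descending libraries, the controls measured 281, 266 and 54.2 (replicate 3) and the TGFβ libraries 227, 245 and 242. The groups did not overlap in ascending fibroblasts, nor in descending fibroblasts once replicate 3 was left out. TGFβ gave a log2 fold change of -0.36 in ascending fibroblasts (SE 0.03, edgeR adjusted p = 9.63e-08) and -0.20 in descending fibroblasts without replicate 3 (SE 0.05, edgeR adjusted p = 0.00172). With replicate 3 the sign turned, to 0.24 (SE 0.57, edgeR adjusted p = 0.832).

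*Id4* (chr13:48261228-48266026, plus strand, 3849 exonic bases) differed from the other ID genes in its level at each site. It measured 4.04, 4.39 and 4.53 CPM in ascending control and 1.83, 1.80 and 1.66 with TGFβ, the latter on 34 to 38 counts. In descending fibroblasts the controls measured 43.5, 39.2 and 65.6 (replicate 3) and the TGFβ libraries 12.1, 10.8 and 13.2. The 4 groups did not overlap, with or without replicate 3. In edgeR the log2 fold change was -1.30 in ascending fibroblasts (SE 0.19, edgeR adjusted p = 2.29e-05). In descending fibroblasts it was -2.05 with all 6 libraries (SE 0.24, edgeR adjusted p = 0.00724), where *Id4* was the member that passed, and -1.77 without replicate 3 (SE 0.09, edgeR adjusted p = 2.0e-16). With replicate 3 kept and any descending TGFβ library left out, the adjusted p rose to between 0.0567 and 0.0681. A block for replicate number, with all 6 libraries, also ended this call. Antisense genes cover part of *Id4* as well, *Gm49291* 4.44% of its exonic bases and *A330033J07Rik* 2.13%. For *Acvrl1* the antisense gene *Gm16031* covers 2.98%, and for *Eng* the gene *Fpgs* on the opposite strand covers 1.51%.

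A fit of all 12 libraries together, which shares its spread with descending control replicate 3, called 3 members with TGFβ in ascending fibroblasts (*Id2*, *Id4* and *Acvrl1*), where 16% of all genes were called. That fit called 4 in descending fibroblasts (the same 3 with *Smad1*), where 24.4% of all genes were.

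Whether TGFβ acted to a different extent at the 2 sites was asked with the interaction of site and treatment. With all 12 libraries no member passed in edgeR, where 0.806% of 14637 genes did. At an unadjusted p under 0.05 there were 2, *Id4* and *Acvrl1*, where 1464 of the 14637 genes were. DESeq2 likewise gave 0 after adjustment, where 3.4% of all genes passed, and 2 before it, where 1797 of the 14637 did. Without descending control replicate 3, *Acvrl1* and *Eng* passed, 2 of 10 members, where 13.5% of all genes did, so the members' share was near that of all genes. *Acvrl1* fell more in ascending fibroblasts, with an interaction of -0.38 on the log2 scale (SE 0.08, edgeR adjusted p = 0.00108). *Eng* rose more in ascending fibroblasts, with an interaction of 0.17 (SE 0.05, edgeR adjusted p = 0.0329). Among the ID genes the interaction without replicate 3 was -0.16 for *Id1* (95% interval -0.32 to -0.01, edgeR adjusted p = 0.180). It was -0.06 for *Id2* (-0.29 to 0.17, edgeR adjusted p = 0.819) and -0.16 for *Id3* (-0.28 to -0.04, edgeR adjusted p = 0.0717). For *Id4* it was 0.48 (0.09 to 0.87, edgeR adjusted p = 0.0995). With all 12 libraries the interaction was -0.55 for *Id1*, -0.29 for *Id2*, -0.61 for *Id3* and 0.74 for *Id4* (edgeR adjusted p = 0.663, 0.692, 0.696 and 0.367). The intervals are not adjusted for the number of genes.

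The next question was how the sites differed within each treatment. In control cultures *Id4* was the member that stood apart, at 41.4 ± 3.06 CPM (SD, n = 2, without replicate 3) in descending fibroblasts and 4.32 ± 0.25 (n = 3) in ascending fibroblasts. *Acvrl1* had the opposite order, at 79.4 ± 1.48 CPM (n = 2) in descending and 141.5 ± 2.70 (n = 3) in ascending control. With all 6 control libraries, 1 member passed, where 2.65% of 14090 genes did. Without replicate 3, 5 of 10 passed, 2 higher and 3 lower in ascending fibroblasts, where 31.6% of all genes did. With TGFβ, a comparison that does not use the control libraries, 8 of 10 passed, 3 higher and 5 lower, where 36.3% of 13678 genes did. In the fit of all 12 libraries, *Id4* was the 1 member of these 8 that passed with TGFβ, where 7.56% of all genes did, and *Id4* and *Acvrl1* passed in control, where 10.6% did.

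*Id4* was lower in ascending fibroblasts by 3.25 on the log2 scale in control cultures without replicate 3, a 9.50-fold difference (SE 0.09, edgeR adjusted p = 1.05e-11). With replicate 3 the log2 fold change was -3.51 (SE 0.25, edgeR adjusted p = 0.00397). Leaving out ascending control replicate 1 or 3 instead brought that adjusted p to 0.0535 and 0.0504. A block for replicate number ended that call as well. With TGFβ the log2 fold change was -2.77, a 6.82-fold difference (SE 0.16, edgeR adjusted p = 9.01e-15). The lowest descending library, at 10.8 CPM, lay above the highest ascending library, at 4.53 CPM. *Id4* was the single member called in all 3 of these fits.

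*Id3* was also lower in ascending fibroblasts, though by less. The log2 fold change was -0.52 with TGFβ (SE 0.04, edgeR adjusted p = 1.24e-11) and -0.35 in control without replicate 3 (SE 0.04, edgeR adjusted p = 1.78e-05). With replicate 3, at 54.2 CPM, it was 0.09 (SE 0.57, edgeR adjusted p = 0.943). *Id1* passed with TGFβ, with a log2 fold change of -0.26 (SE 0.06, edgeR adjusted p = 0.000366). In control without replicate 3 it was -0.09, with a 95% interval from -0.21 to 0.03 (edgeR adjusted p = 0.234), and with it 0.29 (edgeR adjusted p = 0.768). *Id2* passed in neither treatment. Its difference was -0.04 with TGFβ (interval -0.22 to 0.15, edgeR adjusted p = 0.785) and 0.03 in control without replicate 3 (interval -0.13 to 0.18, edgeR adjusted p = 0.825). With replicate 3 the control difference of *Id2* was 0.26 (edgeR adjusted p = 0.660).

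Of the receptors, *Acvrl1* was higher in ascending fibroblasts, by 0.85 on the log2 scale in control without replicate 3 (SE 0.05, edgeR adjusted p = 1.09e-08). With TGFβ the difference was 0.46 (SE 0.06, edgeR adjusted p = 1.11e-07), and in control with replicate 3 it was 1.04 (SE 0.21, edgeR adjusted p = 0.0711). *Eng* was lower in ascending fibroblasts. Its log2 fold change was -0.32 in control without replicate 3 (SE 0.04, edgeR adjusted p = 5.28e-05), -0.14 with it (SE 0.20, edgeR adjusted p = 0.752) and -0.16 with TGFβ (SE 0.04, edgeR adjusted p = 0.0011). *Bmpr1a* was lower by 0.15 with TGFβ (log2 fold change -0.15, SE 0.04, edgeR adjusted p = 0.00331) and did not pass in control, at -0.10 without replicate 3 (edgeR adjusted p = 0.193) and -0.34 with it (edgeR adjusted p = 0.513). *Bmpr2* passed in neither treatment. Its difference was 0.06 with TGFβ (95% interval -0.02 to 0.14) and -0.10 in control without replicate 3 (-0.25 to 0.04). With replicate 3 the control difference of *Bmpr2* was -0.78 (-1.84 to 0.29).

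The SMADs were higher in ascending fibroblasts with TGFβ. *Smad6* differed by 0.32 on the log2 scale (SE 0.04, edgeR adjusted p = 7.16e-07) and *Smad1* by 0.25 (SE 0.07, edgeR adjusted p = 0.00622). In control without replicate 3 *Smad6* differed by 0.15 (SE 0.04, edgeR adjusted p = 0.0180), and *Smad1* did not pass, at 0.14 (SE 0.08, edgeR adjusted p = 0.208). With replicate 3 neither passed in control, *Smad6* at 0.47 (SE 0.34) and *Smad1* at 0.04 (SE 0.14).

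Markers of other cells also moved with site. The list of 3 mesothelial genes (*Msln*, *Upk3b*, *Krt19*) summed to 19.6 to 42.7 CPM in ascending and 6.89 to 13.9 in descending libraries (12.2 to 13.9 without descending control replicate 3). Within the ascending libraries it was 32.9 to 42.7 CPM in control and 19.6 to 26.5 with TGFβ. The ascending sum was mostly *Upk3b*, a uroplakin gene, at 33.7 ± 4.17 CPM (SD, n = 3) in ascending control and 1.29 ± 0.45 (n = 2) in descending control without replicate 3. *Krt19*, a keratin gene, had the opposite order, at 3.71 ± 0.41 (n = 3) and 11.6 ± 0.30 CPM (n = 2). The 4 smooth muscle markers summed to 136 to 149 CPM in ascending control and 194 to 244 in descending control (194 to 198 without replicate 3), and to 180 to 193 and 317 to 342 with TGFβ. The 3 cardiomyocyte markers summed to 3.26 to 7.74 CPM in ascending and 0.389 to 1.43 in descending libraries, and within the ascending libraries to 5.84 to 7.74 in control and 3.26 to 3.70 with TGFβ. Nearly all of the ascending sum was *Tnnt2*, encoding cardiac troponin T. *Myh6* was at 0 in all 12 libraries, and *Actc1* had up to 11 counts in descending control. A list of 3 Schwann cell markers, whose values are not given here, summed higher in every ascending than in every descending library. The part of these markers in the differences between sites and in the changes with TGFβ was not tested.

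**Figure D3:**
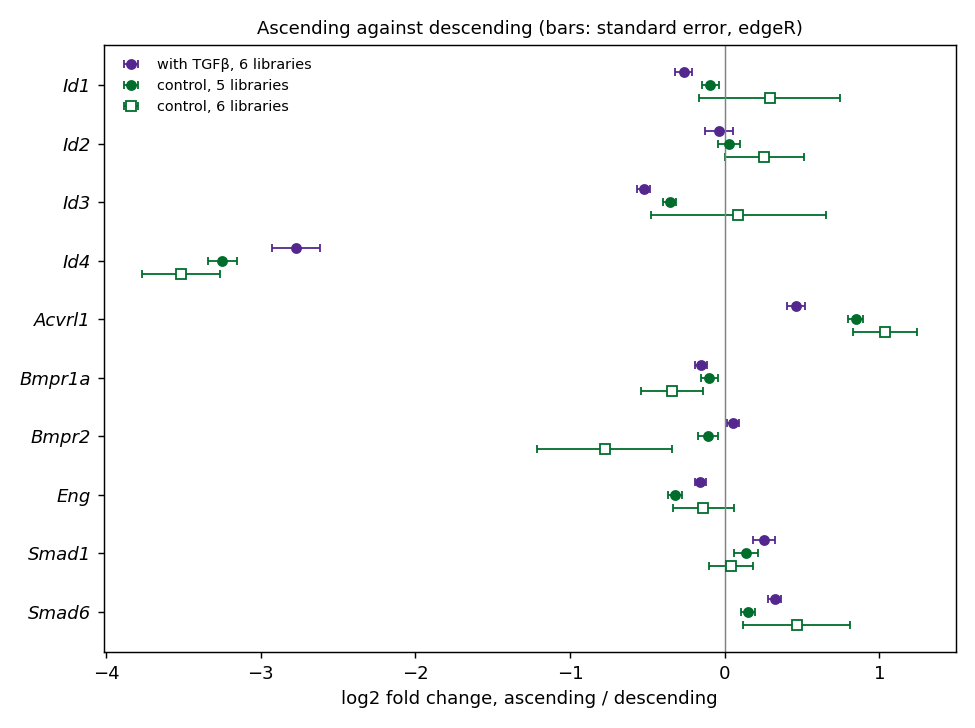
Log2 fold change of ascending against descending fibroblasts for the 10 genes (edgeR), with bars of 1 standard error. Purple circles are the TGFβ libraries, green circles the control libraries without descending replicate 3 and open squares all 6 control libraries. *Id4* lies near -3 in all 3 fits and *Acvrl1* lies right of 0, while *Id3* and *Eng* lie left of 0 in the TGFβ libraries and in control without replicate 3.

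Levels of different genes were compared after division by exonic length, as CPM per kb. In ascending control *Id3* was highest at 118 ± 1.89 CPM per kb (SD, n = 3), followed by *Smad6* at 77.8 ± 2.91 and *Id1* at 71.8 ± 1.70. *Eng* stood at 50.2 ± 1.04, *Acvrl1* at 33.2 ± 0.63, *Bmpr1a* at 21.2 ± 0.68 and *Id2* at 16.1 ± 0.98. *Bmpr2* at 7.75 ± 0.61, *Smad1* at 5.14 ± 0.48 and *Id4* at 1.12 ± 0.07 closed the order. In none of the 4 groups, descending control taken without replicate 3, did the ranges of 2 neighbours in the order overlap. With TGFβ, *Eng* came to stand above *Smad6*, at 66.7 ± 0.46 against 59.6 ± 1.44 CPM per kb in ascending and 74.4 ± 1.40 against 47.7 ± 3.14 in descending fibroblasts. *Bmpr1a* likewise came to stand above *Acvrl1* in ascending fibroblasts, at 21.3 ± 0.41 against 15.6 ± 0.95. In descending TGFβ *Acvrl1* and *Bmpr2* were neighbours, at 11.4 ± 0.77 and 10.4 ± 0.10. In descending control without replicate 3 *Id4*, at 10.7 ± 0.80 (n = 2), stood above *Bmpr2*, at 8.40 ± 0.60, whereas in the other 3 groups it was the lowest of the 10. With replicate 3 that pair changed places, at 12.8 ± 3.68 and 13.3 ± 8.45 (n = 3). Exonic length counts the union of all annotated transcripts, so a gene whose longest forms are little used reads low on this scale.

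**Figure D4:**
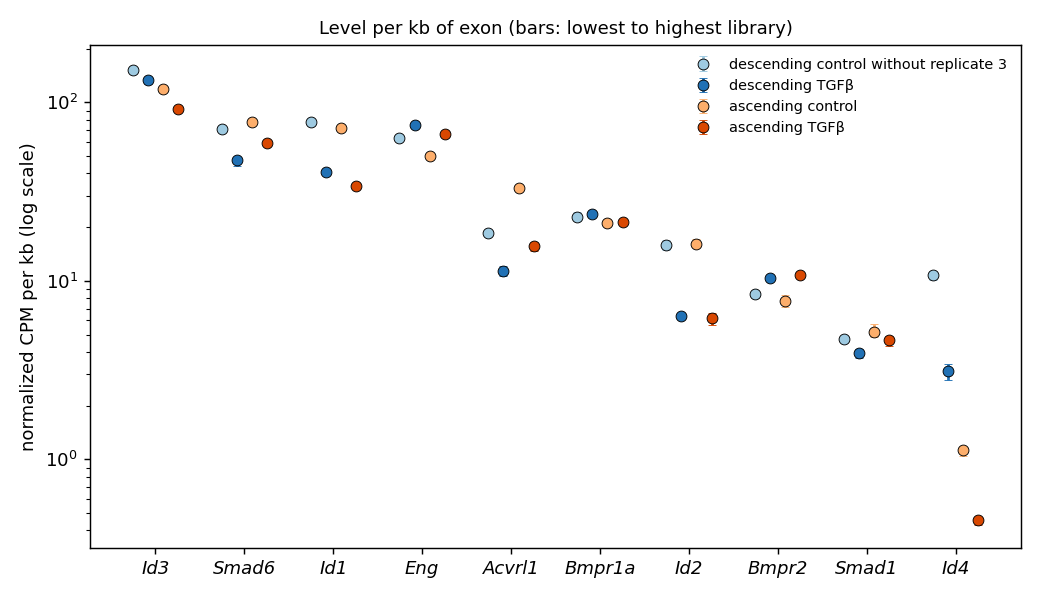
Mean normalized CPM per kb of exon (log axis) for the 10 genes in 4 groups, with bars from the lowest to the highest library, many of them within the symbol. Descending control is drawn without replicate 3. *Id3* is highest in every group, at 92.3 to 153, and *Id4* spans 0.457 to 10.7.

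For each ID gene, the genes with the most similar course over the 12 libraries were named by the root mean square difference of their centred log2 CPM, among 14637 genes. This is a description over 12 libraries that share the same groups and says nothing of shared control. Nearest to *Id1* were *Naprt* at 0.15 and *Smim1* at 0.16, which ranked 58 and 75 when descending control replicate 3 was left out. Nearest to *Id2* were *Ccnd1* at 0.14 and *Sesn1* at 0.15, ranking 3 and 11 in the 11 libraries. For *Id3* they were *Phlda3* at 0.09, which kept rank 1 in the 11 libraries, and *Fbxl19* at 0.13, which fell to 94. For *Id4* they were *Tspan18* at 0.25 and *Tnfsf15* at 0.30, ranking 1 and 4 in the 11 libraries. *Tspan18*, a tetraspanin gene, went from 18.4 to 39.6 CPM in the 3 descending controls to 0.58 to 0.90 CPM in ascending TGFβ.

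The rest of the pathway was read from 6 lists, and values below are for ascending fibroblasts and then for descending fibroblasts without replicate 3. Of 10 other receptors and co-receptors 9 were tested. In ascending fibroblasts 5 rose and 2 fell, where 28.2% of all genes rose and 27.6% fell. In descending fibroblasts 4 rose and 3 fell, where 26.6% of all genes rose and 26.3% fell. With replicate 3, 1 rose and 2 fell, where 3.59% of all genes rose and 4.48% fell. *Tgfbr3*, the betaglycan co-receptor, fell by 1.93 and 2.38 on the log2 scale (edgeR adjusted p = 5.62e-14 and 1.65e-21). *Rgma*, a BMP co-receptor, fell by 1.79 and by 1.00 (edgeR adjusted p = 1.83e-11 and 2.49e-11). *Acvr1*, encoding the type I receptor ALK2, rose by 0.75 and 0.70 (edgeR adjusted p = 5.7e-10 and 7.87e-12). *Bmpr1b*, encoding ALK6, rose by 2.10 and 2.39 from low levels, 1.54 ± 0.30 CPM (SD, n = 3) to 6.66 ± 1.25 in ascending fibroblasts. The type II receptor gene *Acvr2a* rose by 0.32 and 0.53, while *Acvr2b* stood at 0.04 and 0.12 and passed at neither site.

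Of 8 other SMADs and SMAD regulators, 4 rose and 2 fell in ascending fibroblasts, and 3 rose and 1 fell in descending fibroblasts. That is 6 and 4 of 8 called, against 55.8% and 52.9% of all genes, so the descending share was near that of all genes. With replicate 3, 1 of 8 was called, against 8.07% of all genes. *Skil*, encoding the SMAD corepressor SnoN, rose by 1.69 and 1.90 (edgeR adjusted p = 1.73e-14 and 1.58e-21). *Smad7*, encoding the other inhibitory SMAD, rose by 0.52 and 0.61 (edgeR adjusted p = 3.15e-08 and 1.58e-10), the opposite direction to *Smad6*. *Smad9* fell by 0.35 and 0.60 (edgeR adjusted p = 0.00173 and 2.78e-06). *Smad4* and *Smad5* passed at neither site, with values of 0.07 and -0.10 for *Smad4* and 0.08 and -0.02 for *Smad5*. The ubiquitin ligase gene *Smurf1* rose by 0.38 and 0.31 (edgeR adjusted p = 1.8e-07 and 5.36e-06).

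Other BMP targets did not move together. Of 9 tested in ascending fibroblasts 2 rose and 2 fell, and of 10 tested in descending fibroblasts 4 rose and 4 fell. The 4 of 9 called in ascending fibroblasts lay under the 55.8% of all genes, and the 8 of 10 in descending fibroblasts over the 52.9%. With replicate 3, 1 of 10 was called, against 8.07% of all genes. *Atoh8*, a bHLH gene, fell by 1.55 and 1.57 (edgeR adjusted p = 1.36e-14 and 5.3e-20), from 124 ± 2.93 to 42.6 ± 0.50 CPM in ascending fibroblasts (SD, n = 3). *Runx2*, the osteoblast factor, had a log2 fold change of 0.35 in ascending and -0.53 in descending fibroblasts (edgeR adjusted p = 0.0232 and 5.62e-05). *Gata3* rose by 0.72 and 0.64 (edgeR adjusted p = 0.0269 and 0.0435) on 25 to 79 counts per library. The descending rise rests on leaving out replicate 3, at 4.14 CPM against 2.06 to 3.73 in the descending TGFβ libraries. Leaving out single ascending libraries moved the count of these targets called from 4 to between 1 and 5.

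Of 9 BMP ligand genes 4 were tested, of which 2 rose and 2 fell at each site, where 55.8% and 52.9% of all genes were called. With replicate 3, 3 of the 4 were called in descending fibroblasts, against 8.07% of all genes. *Bmp4* fell by 1.12 at both sites (edgeR adjusted p = 1.05e-13 and 1.09e-12) and was higher in ascending control, at 186 ± 2.21 CPM (SD, n = 3) against 44.2 ± 0.49 (n = 2) in descending control. *Gdf6* rose by 1.52 and 3.19 (edgeR adjusted p = 1.46e-14 and 5.63e-18), and was also higher in ascending control, at 121 ± 6.67 CPM against 2.95 ± 0.50. *Bmp6* rose by 0.62 and 0.82 (edgeR adjusted p = 3.4e-09 and 1.71e-11). Of the antagonists, *Fst*, encoding follistatin, rose by 0.59 in ascending fibroblasts (edgeR adjusted p = 1.04e-07) and stood at 0.02 in descending fibroblasts (edgeR adjusted p = 0.828). *Chrdl1* fell at both sites (edgeR adjusted p = 3.76e-07 and 4.0e-10), from 34 to 46 counts per library to 1 or 2 in ascending fibroblasts and from 89 to 92 counts to between 3 and 9 in descending fibroblasts.

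The bHLH genes whose products ID proteins bind fell or did not pass. Of 6 tested in ascending fibroblasts 5 fell, and of 5 tested in descending fibroblasts 4 fell, where 27.6% and 26.3% of all genes fell. With replicate 3, edgeR called none of the 5 in descending fibroblasts, where 8.07% of all genes were called. At an unadjusted p under 0.05 there was 1, where 3246 of 13825 genes were. DESeq2 called 1, where 18.3% of all genes were called. *Tcf3*, encoding the E protein E2A, fell by 0.36 and 0.44 (edgeR adjusted p = 1.64e-06 and 1.53e-07). *Tcf4* fell by 0.33 and 0.53 (edgeR adjusted p = 2.75e-05 and 4.84e-08). *Tcf21*, a fibroblast and epicardial factor, fell by 0.69 in ascending fibroblasts (edgeR adjusted p = 0.000396) and did not pass the low-count filter in descending fibroblasts. The median log2 fold change of the list was -0.35 and -0.44, against -0.00 and -0.01 over all genes.

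**Figure D5:**
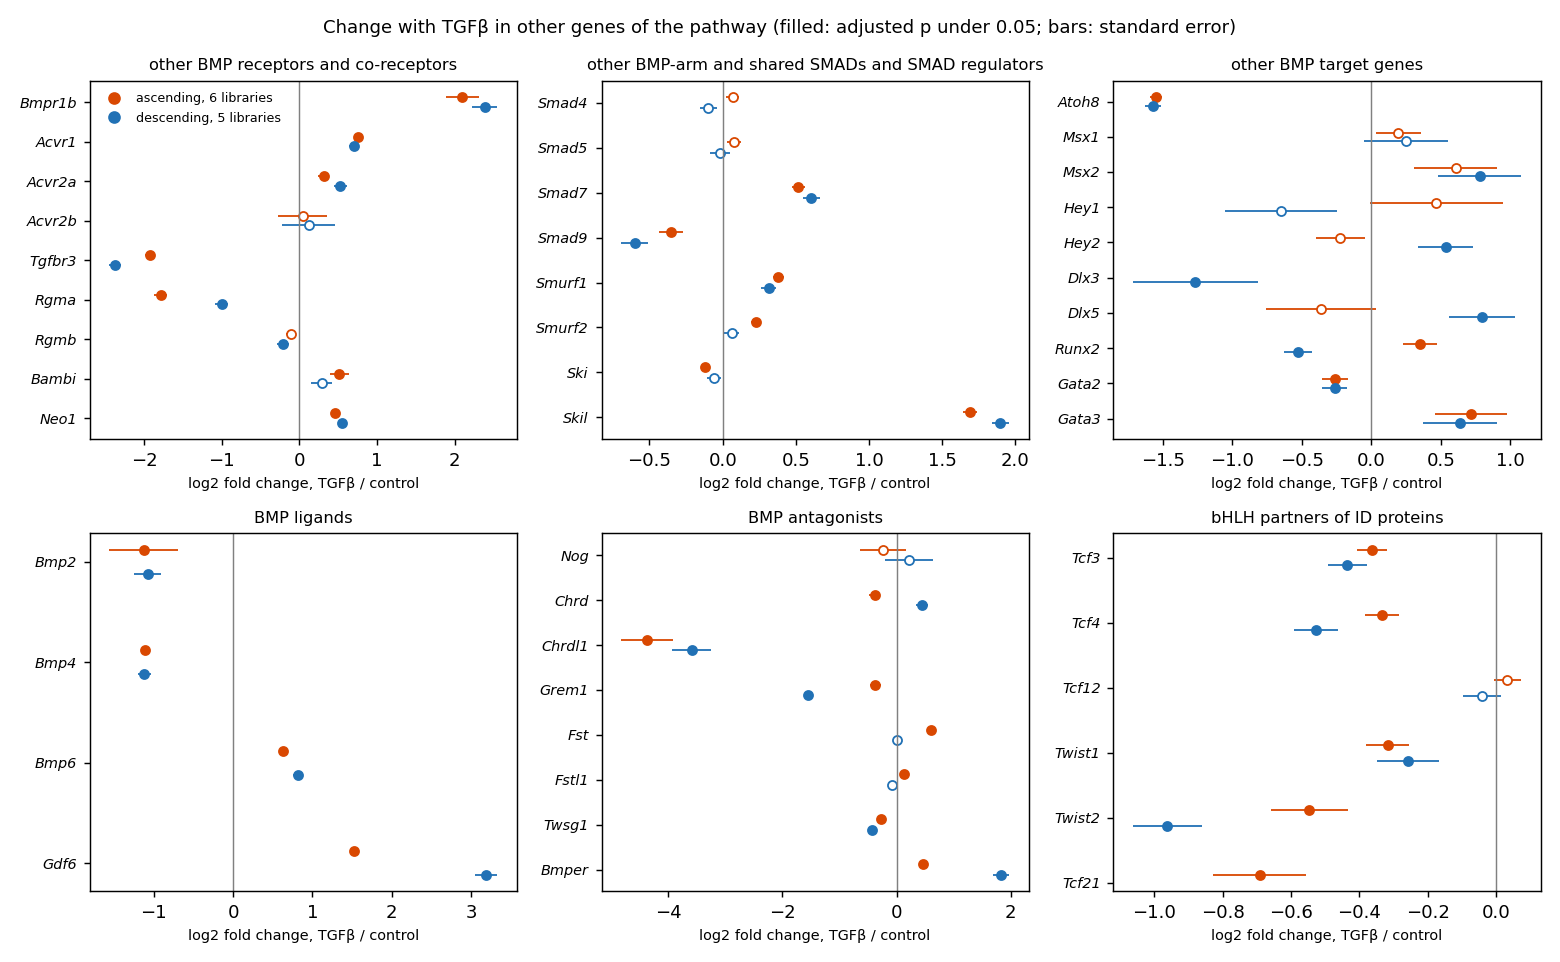
Log2 fold change of TGFβ against control (edgeR), with bars of 1 standard error, for the other genes of the pathway in 6 lists. Orange is ascending fibroblasts (6 libraries), blue is descending fibroblasts without control replicate 3 (5 libraries), and filled symbols have an adjusted p under 0.05. *Bmpr1b*, *Skil* and *Gdf6* lie right of 0 and *Tgfbr3*, *Rgma*, *Atoh8*, *Bmp4* and *Chrdl1* lie left of 0 at both sites.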

How the data were processed

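The 12 libraries were mapped by the authors to mm10 with STAR after FastQC, as paired-end reads, and the deposited values are their unnormalized featureCounts counts, by gene symbol and library. Tool versions and the strand setting are not given in the sources used here. From these counts, edgeR 4.0.16 in R 4.3.3 computed TMM factors, applied filterByExpr (minimum count 10, minimum total 15) and fitted the quasi-likelihood F-test to the libraries of the groups compared, with Benjamini-Hochberg adjustment across every gene tested and calls at an adjusted p under 0.05. The 5 comparisons were TGFβ against control at each site, ascending against descending in each treatment, and the interaction. The standard error was the fold change divided by the root of F. A count of 3 (0.117 to 0.207 CPM) served as floor, for counting error only. Alternatives were DESeq2 1.42.0, its size factors in edgeR, other filters, a replicate block, 1 fit of 12 libraries and leaving out each library. On simulated counts for the ascending comparison (13937 genes), edgeR recovered 94.8% of genes changed 1.5-fold and 100% of those changed 2-fold. For the interaction (14284 genes) edgeR recovered 87.0% of genes changed 1.5-fold, with 4.04% of its calls false, and DESeq2 recovered 80.5%. The simulated libraries all had the same fixed spread, with means taken without descending control replicate 3 and no outlying library. These recoveries therefore do not hold for the fits that include that replicate. Gene positions came from GENCODE vM21 (98.9% of symbols matched) and promoter windows from RefSeq GRCm38.p6. The 10 members and the 6 pathway lists were chosen with earlier results of these data known. Besides the members, the 3 genes of each list with the smallest adjusted p in ascending fibroblasts were named, as were receptors and SMADs of the first 2 lists. Some genes of these lists and of the marker lists are not reported here. Nearest genes were ranked by root mean square difference of centred log2 CPM (prior count 2). The labels and the methods differ on age, and the labels were followed.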

Additional observations from a re-analysis of the deposited data

Results flagged for a closer look

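The change with TGFβ in *Eng* and *Acvrl1* differed between the 2 sites by a test of the difference itself, when descending control replicate 3 was left out. The interaction of site and treatment was 0.17 on the log2 scale for *Eng*, which rose more in ascending fibroblasts (edgeR adjusted p = 0.0329), and -0.38 for *Acvrl1*, which fell more there (edgeR adjusted p = 0.00108). With all 12 libraries the values were -0.01 and -0.57 (edgeR adjusted p = 0.975 and 0.421). For *Acvrl1* the ascending controls started from 141.5 ± 2.70 CPM (SD, n = 3) and the descending controls without replicate 3 from 79.4 ± 1.48 (n = 2).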

How the results depend on the processing

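Of 10 members, 8 passed with TGFβ in ascending fibroblasts, 1 in descending fibroblasts, 1 between sites in control, 8 between sites with TGFβ and 0 for the interaction. A fit of all 12 libraries changed these to 3, 4, 2 and 1 for the first 4. DESeq2 gave 2 with TGFβ in descending fibroblasts and 2 between sites in control. A minimum of 10 counts in every library gave 2 with TGFβ in descending fibroblasts, where 11.1% of 11403 genes were called. Leaving out single libraries gave 0 to 9 with TGFβ in descending fibroblasts, 0 to 5 between sites in control and 0 to 2 for the interaction. Over all genes, the 12-library fit gave 2338 calls against 7767 with TGFβ in ascending fibroblasts, 3570 against 1115 in descending fibroblasts, 1545 against 374 between sites in control and 1106 against 4963 between sites with TGFβ. DESeq2 gave 2531, 1151 and 497 (interaction, against 118) where edgeR gave 1115, 374 and 118. Without the low-count filter the interaction gave 56. Leaving out single libraries gave 213 to 7576 with TGFβ in descending fibroblasts, 33 to 4631 between sites in control and 25 to 2022 for the interaction. The cause of these shifts was not tested.

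Same-numbered libraries did not deviate together (correlations from -0.03 to 0.07), so the numbers were not read as pairs. With a replicate block, 0 members passed with TGFβ in descending fibroblasts and 0 between sites in control (*Id4* had adjusted p of 0.0503 and 0.0720), and over all genes 95, 0 and 50 passed with TGFβ in descending fibroblasts, between sites in control and for the interaction. With the block the median log2 fold change of all genes was 0.10 in each of the first 2 of these, against 0.02 and 0.04 without it.

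Some signs turned between settings, among them 4 that passed without descending control replicate 3 (*Id3* and *Bmpr2* with TGFβ in descending fibroblasts, *Id3* between sites in control and *Eng* for the interaction). *Bmpr1a* with TGFβ in ascending fibroblasts, at -0.00, became 0.0065 without the low-count filter and 0.0042 in the 12-library fit, and ran from -0.024 to 0.020 over left-out libraries. Over left-out libraries, *Id3* ran from -0.20 to 0.57, *Bmpr1a* from -0.32 to 0.051 and *Bmpr2* from -0.61 to 0.31 with TGFβ in descending fibroblasts. Between sites in control *Id1* ran from -0.093 to 0.59, *Id3* from -0.35 to 0.41 and *Smad1* from -0.033 to 0.14, and with TGFβ *Id2* ran from -0.085 to 0.023. For the interaction *Eng* ran from -0.14 to 0.17, *Bmpr1a* from -0.048 to 0.32 and *Smad6* from -0.35 to 0.18. Every member had at least 34 counts in every library.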
